A study of Mus musculus with 21 samples.

Results

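The library labelled PI8 day 9 held 683 of the 25991 cells of the series. All cells whose barcodes carried that library's name were taken, with no further selection. The label calls them fibroblasts transduced with the transcription factors Pu.1 (gene symbol Spi1) and Irf8, and the working description calls them progenitor-like from 5 genes, Ctla2a, Prtn3, Mpo, Car2 and Kit. The cells expressed genes of haematopoietic stem cells and early progenitors, with the granule genes Prtn3 and Mpo in most cells and Ctsg and Dntt in a subset of them. Genes of mature dendritic cells (DCs) were low, and those of fibroblasts close to 0. The data therefore went against the label, and the cells are called by their library name here.

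Blood cells arise from stem cells through multipotent progenitors that gradually restrict their options to lymphoid, granulocyte-monocyte, megakaryocyte, erythroid or DC fates. Early progenitors keep a set of transcription factors that sustain self-renewal, among them Hlf, Mecom, Meis1 and Hoxa9. Granulocyte-monocyte progenitors begin to make the enzymes later stored in granules, and DC precursors switch on Irf8-dependent and antigen presentation genes as they mature. Pu.1 is an ETS-family factor needed for myeloid and lymphoid development, and Irf8 directs the fate of monocytes, type 1 conventional DCs and plasmacytoid DCs.

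The PI8 day 9 group was 1 library. Its labels describe mouse embryonic fibroblasts (MEFs) of the genotype Clec9aCre/Cre Rosa26stopflox-tdTomato/tdTomato, given Pu.1 and Irf8 by lentivirus, collected at day 9 and sorted as live (DAPI-negative) tdTomato+ cells. In the labelled line Cre is driven by the Clec9a gene, which DCs and their precursors use, so that tdTomato marks any cell that has expressed it. The PI8 day 3 group was the library labelled the same way at day 3, with 411 cells. The splenic groups were wildtype and neither transduced nor cultured. They were type 1 conventional DCs sorted as CD11c+MHC-II+CD8alpha+ (cDC1, 814 cells), type 2 conventional DCs sorted as CD11c+MHC-II+CD11b+ (cDC2, 1881 cells) and plasmacytoid DCs sorted as CD11c+SiglecH+B220+BST2+ (pDC, 4169 cells). Each was 1 library of live cells. Of untransduced wildtype MEFs there were 2 libraries. The labels give no ages or sexes, and no number of animals. With 1 library per group no test of a difference between groups was possible, intervals cover counting error only, and cell type, sort, culture and library cannot be told apart.

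RNA was counted as unique molecular identifiers (UMIs), each standing for 1 captured transcript read near its 3' end. A PI8 day 9 cell held a median of 8276 UMIs from 2648 genes, against medians of 15938, 11957 and 11707 UMIs in cDC1, cDC2 and pDC cells. The library summed to 6194472 UMIs, against 13208494, 23357225 and 53142916 in the splenic libraries. Levels are UMIs per 1000000 UMIs of the library (CPM). The 3 UMIs taken as the floor equal 0.484 CPM in the PI8 day 9 library. Barcodes shared with other libraries numbered 6 in 6 of the 20, and 0 with the splenic and PI8 day 3 libraries. Shares of cells with a UMI depend on depth, and some are also given after thinning every cell to 2500 UMIs.

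Fibroblast genes were close to absent. The 12 fibroblast genes, which encode collagens, matrix proteins and PDGF receptors, summed to 14.8 CPM in PI8 day 9 cells, against 25547 and 25248 CPM in the MEF libraries and 0.26 to 0.38 CPM in the splenic libraries. They summed to 1857 CPM in PI8 day 3 cells and to at least 953.8 CPM in each of the 15 other libraries from transduced MEFs. In PI8 day 9 cells 5 of the 12 were at 0, and Pdgfrb (8.39 CPM) and Col1a2 (3.39 CPM) made up most of the sum. At least 3 UMIs of these genes were found in 2 of 683 PI8 day 9 cells, in 410 of 411 PI8 day 3 cells and in every MEF cell. The Y-linked genes Ddx3y, Eif2s3y and Kdm5d had 0 UMIs in PI8 day 9 cells, which allows up to 0.484 CPM, against 17.4, 25.3 and 2.70 CPM in PI8 day 3 cells. Uty, another Y-linked gene, had 1 UMI in PI8 day 9 cells. Y-linked genes were close to 0 in the splenic libraries too, as given with Xist below. The sequence of the reporter was not among the counted genes, and Clec9a itself had 2 UMIs (0.32 CPM) in PI8 day 9 cells. What set the library apart from its label was not tested.

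Of the 5 genes in the working description, 4 were at least 4-fold higher in PI8 day 9 cells than in every splenic library. With that 4-fold size rule and at least 10 CPM in either library, 11.1% of 8581 genes were higher and 7.02% lower against cDC1. Against cDC2 10.8% of 8872 genes were higher and 9.89% lower, and against pDC 9.96% of 8907 were higher and 9.63% lower. Of the 8175 genes eligible in all 3 comparisons, 6.28% were higher than in every splenic library and 2.34% lower than in every one. Scaling by edgeR's TMM factors lowered the log2 ratio by 0.33 against cDC1, 0.22 against cDC2 and 0.02 against pDC. That moved the share of calls that were higher against cDC1 to 47.8%, or 47.9% with DESeq2 size factors, against 61.3% as reported here. Against cDC2 the share moved from 52.3% to 43.5% (44.0% with DESeq2), and against pDC from 50.8% to 48.5% (48.8%). The counts of list members below are read against the shares of eligible genes given above.

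Ctla2a, an inhibitor of cysteine proteases (chr13:60934155-60936625, minus strand, GRCm38), stood at 1229.6 CPM in PI8 day 9 cells, against 0.076, 0.13 and 0.094 CPM in cDC1, cDC2 and pDC cells. It had a UMI in 99.1% of PI8 day 9 cells, 87.4% after thinning. The gene was not particular to this library, since the other transduced libraries ran up to 685.3 CPM, and the near-identical Ctla2b makes its count uncertain. Prtn3, the granule serine protease proteinase 3 (chr10:79874476-79883174, plus strand), stood at 564.7 CPM in PI8 day 9 cells, against 0, 0.086 and 0.30 CPM. Its level was 1876 times that in pDC cells (counting interval 1153 to 3285), and it had a UMI in 91.5% of PI8 day 9 cells (64.6% thinned).

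Mpo, the myeloperoxidase of azurophilic granules (chr11:87793581-87804413, plus strand), stood at 393.1 CPM in PI8 day 9 cells, against 0, 0.043 and 0 CPM in cDC1, cDC2 and pDC cells. Its UMIs were found in 59.3% of PI8 day 9 cells (37.3% thinned) and in 0 of 814 cDC1 cells, which allows a share of up to 0.369%. Car2, the carbonic anhydrase that stem cells and erythroid progenitors share (chr3:14886273-14900770, plus strand), stood at 537.1 CPM in PI8 day 9 cells, against 1.21, 6.29 and 0.28 CPM. The ratio was 85.3 against cDC2 (interval 72.3 to 101), the smallest of its 3 ratios. Kit, the stem cell factor receptor (chr5:75574916-75656722, plus strand), did not set the library apart from conventional DCs. It stood at 141.6 CPM in PI8 day 9 cells, against 139.2, 188.2 and 3.65 CPM, a ratio of 1.02 against cDC1 (interval 0.94 to 1.10) and of 38.8 against pDC (interval 33.2 to 45.5).

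Per cell, 243 of 683 PI8 day 9 cells held UMIs of all 5 genes and 656 (96.0%) of at least 3, or 439 (64.3%) after thinning. None of the 683 lacked all 5. At least 3 of the 5 were found in 1 of 814 cDC1 cells and in no cDC2 or pDC cell.

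**Figure D1:**
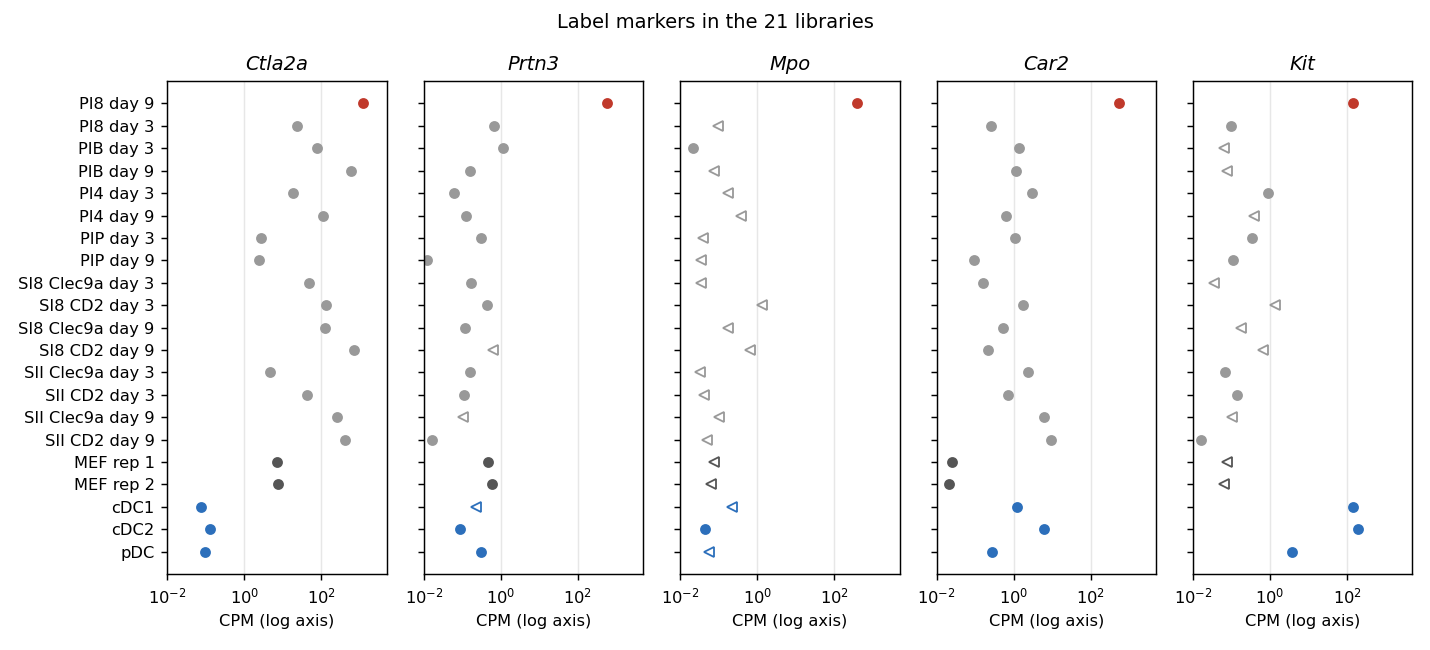
Levels of the 5 label markers in the 21 libraries (1 point per library, CPM on a log axis); open triangles stand at the 3-count floor for libraries with 0 UMIs. PIB, PI4, PIP, SI8 and SII are the labels' names for other factor sets, in a Clec9a or CD2 reporter line. PI8 day 9 is the highest point for Ctla2a, Prtn3, Mpo and Car2, and for Kit it lies between cDC1 and cDC2.

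The granule protease and peroxidase genes were at or near 0 in splenic cells, and the bases ahead of 4 of them are shown. Summed over the PI8 day 9 library each was higher than in every splenic library, although Ctsg UMIs lay in 174 cells and Elane UMIs in 17. The stretches are RefSeq promoter sequence (GRCm38.p6), limited to the 250 bases before the RefSeq start and cut where the first GENCODE exon begins. Capitals mark GAGGAA (the Pu.1 core) and, in Ctsg, ACCACA, the reverse strand of the RUNX letters TGTGGT.
Mpo: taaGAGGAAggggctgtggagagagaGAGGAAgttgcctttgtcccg
Prtn3: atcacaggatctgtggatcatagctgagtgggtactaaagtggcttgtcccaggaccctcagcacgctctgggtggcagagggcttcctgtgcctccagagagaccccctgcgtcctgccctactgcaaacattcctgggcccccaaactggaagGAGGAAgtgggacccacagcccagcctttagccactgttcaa
Elane: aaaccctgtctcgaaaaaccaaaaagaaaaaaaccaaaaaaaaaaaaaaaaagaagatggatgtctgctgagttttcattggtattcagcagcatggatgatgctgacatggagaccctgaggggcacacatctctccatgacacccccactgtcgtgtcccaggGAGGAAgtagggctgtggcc
Ctsg: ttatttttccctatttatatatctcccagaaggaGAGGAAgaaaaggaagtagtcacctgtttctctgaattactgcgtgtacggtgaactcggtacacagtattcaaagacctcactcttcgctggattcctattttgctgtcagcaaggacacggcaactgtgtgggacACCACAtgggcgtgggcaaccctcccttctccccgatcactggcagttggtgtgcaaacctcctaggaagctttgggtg
They lie at chr11:87793534-87793580 (Mpo, plus strand), chr10:79879417-79879613 (Prtn3, plus), chr10:79886062-79886246 (Elane, plus) and chr14:56102575-56102824 (Ctsg, minus). The Prtn3 stretch falls within the longer GENCODE span of that gene given above. Within the 250 bases, read on both strands, each of the 4 held GAGGAA at least once, with its first base 247 and 224 (Mpo), 95 (Prtn3), 85 (Elane) and 216 (Ctsg) bases before the start. Of all 32851 promoters, 23.3% held GAGGAA in that window. The RUNX letters were in 1 of the 4, against 14.05% of all promoters, and the C/EBP letters TTGCNNAA were in none of the 4, against 9.56% of all. A match of letters is not a measured binding site, and binding was not measured.

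Stem and multipotent progenitor genes were largely higher than in splenic DCs. Of 15 genes, 10 were at least 4-fold higher in PI8 day 9 cells than in every splenic library, and 0 were lower than in every one. Among the 8175 genes eligible in all 3 comparisons, 6.28% were higher than in every one. The median log2 ratio over the 14 eligible genes of the list was 8.01 against cDC1, 8.52 against cDC2 and 8.46 against pDC. All eligible genes had medians of 0.36, 0.17 and -0.06. Several list genes near 0 CPM in the spleen passed the 10 CPM limit only through PI8 day 9. Counts of 0 were also set to 3, so the list medians are partly fixed by the rule and are descriptions only. The summed level of the 15 was within the range of the transduced libraries. It was 2045 CPM in PI8 day 9 cells, against 2739 CPM in PI8 day 3 cells, 454.0 to 4456 CPM over all other transduced libraries, and 1105 and 1096 CPM in the MEF libraries. Ly6a, which encodes Sca-1, took little of that sum in PI8 day 9 cells (72.6 CPM), against 2589 CPM in PI8 day 3 cells and 935.3 and 931.9 CPM in the MEF libraries. Hlf, a stem cell transcription factor, stood at 151.1 CPM in PI8 day 9 cells, against 0, 0 and 0.13 CPM in cDC1, cDC2 and pDC cells. Mecom, a zinc finger factor of long-term stem cells, stood at 140.4 CPM, against 0 CPM in all 3. Hlf was found in 61.9% of the PI8 day 9 cells (30.0% thinned) and Mecom in 63.5% (28.7% thinned). Outside the spleen, Hlf was at most 2.90 CPM in any other library, but Mecom stood at 93.9 and 89.1 CPM in the MEF libraries. A UMI of either gene was found in 82.1% of PI8 day 9 cells, against 65.6% of PIB day 3 cells and 77.6% and 85.2% of the cells of the MEF libraries. Cd34, the sialomucin used to sort progenitors, stood at 309.6 CPM in PI8 day 9 cells, against 2.35, 1.41 and 0 CPM.

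Homeobox, ETS and GATA factors were among the group. Meis1, a homeobox cofactor, stood at 144.0 CPM in PI8 day 9 cells, against 5.22, 13.4 and 8.58 CPM. Erg, an ETS factor of stem cells and endothelium, stood at 78.3 CPM, against 0 CPM in all 3. Gata2, a zinc finger factor of stem, mast and megakaryocyte cells, stood at 56.5 CPM, against 0.076, 0.26 and 0 CPM. The remaining genes higher than in every splenic library were Hoxa9, Myct1, Adgrg1 and Tal1. Procr, the endothelial protein C receptor that marks long-term stem cells, was under the 4-fold size in all 3 comparisons, at 26.6 CPM in PI8 day 9 cells, against 30.3, 17.7 and 8.45 CPM, and had a UMI in 18.2% of them. Ly6a stood at 72.6 CPM, against 20.3, 11.8 and 1264 CPM, and so was lower than in pDC. Slamf1 stood at 3.39 CPM, under the 10 CPM limit in each library.

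Megakaryocyte and erythroid genes were partly present. Of 10 megakaryocyte genes, 5 were at least 4-fold higher than in every splenic library, all at low levels. Among them Pf4, a platelet chemokine, stood at 23.4 CPM in PI8 day 9 cells, against 0.076, 0.30 and 0.075 CPM. Itga2b (18.2 CPM), Gp9 (20.2 CPM) and Mmrn1 (17.8 CPM) were likewise higher, each under 0.6 CPM in the splenic libraries. The platelet genes Gp1bb (0.65 CPM) and Vwf (2.58 CPM) stayed under 10 CPM in PI8 day 9 cells. Of 16 erythroid genes, 4 were higher than in every splenic library, namely Car2, Gfi1b, Hbb-bt and Car1. Car1, at 20.99 CPM, came from 130 UMIs in 1 cell. Gata1 (2.74 CPM), Klf1 (1.29 CPM) and Epor (1.61 CPM), which committed red cell precursors use, were under 10 CPM, and the near-identical globin genes are uncertain. Among 12 mast cell and basophil genes, of which 10 were in the table, Cpa3 (12.8 CPM) was the only 1 higher than in every splenic library, and none of the 8 eosinophil genes was.

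Most granulocyte-monocyte progenitor genes were higher than in splenic cells, while later neutrophil genes were low. The sum of the whole progenitor-stage list was nevertheless higher in pDC cells. Of 12 progenitor-stage genes, 7 were at least 4-fold higher than in every splenic library, namely Mpo, Prtn3, Elane, Ctsg, Ms4a3, Csf3r and Gstm1. The 12 summed to 2207 CPM in PI8 day 9 cells, against 784.0, 1160.5 and 2914 CPM in cDC1, cDC2 and pDC cells. Plac8, with 5425 UMIs in 589 PI8 day 9 cells, the most UMIs of the 12, was called in none of the 3 comparisons. The 7 called genes were each at least 4-fold lower in pDC cells, so the higher pDC sum came from other members of the list. Ctsg, the granule protease cathepsin G, stood at 173.5 CPM in PI8 day 9 cells, against 0 CPM in all 3 splenic libraries. Its 1075 UMIs lay in 174 cells, with 12.6% of them in the top cell. Elane, neutrophil elastase, stood at 66.5 CPM, against 0, 0.043 and 0 CPM, yet 97.1% of its 412 UMIs lay in 5 cells and 17 cells had any. Prtn3 was thus the most widely found of the 4 in this library and Elane the least. Cebpe, a factor of late granule formation, stood at 1.45 CPM. None of the 12 later neutrophil genes reached 10 CPM, S100a8 and S100a9 being at 1.61 and 1.94 CPM, and their sum was 6.62 CPM in PI8 day 9 cells, against 1.74, 68.5 and 1.86 CPM in cDC1, cDC2 and pDC cells.

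Monocyte genes were mixed. Against cDC1 1 of the 5 eligible monocyte genes was lower (2 under TMM scaling) and 0 higher, against cDC2 4 of 7 were lower, and against pDC 2 of 5 were lower and 1 higher. Klf4, a monocyte transcription factor, stood at 37.6 CPM in PI8 day 9 cells, against 10.8, 134.9 and 26.1 CPM. Ms4a6c stood at 18.6 CPM, against 73.4, 547.6 and 45.1 CPM, and Ly6c2 at 10.98 CPM, against 4.47, 3.21 and 1851 CPM. Ccr2, the chemokine receptor of monocytes, stood at 2.26 CPM in PI8 day 9 cells, against 85.4, 86.7 and 176.6 CPM, and was the 1 of 8 monocyte genes lower than in every splenic library. Csf1r, the receptor for macrophage colony-stimulating factor, stood at 2.58 CPM, against 3.33, 85.2 and 0.34 CPM. Lyz2, the lysozyme of myeloid cells, stood at 191.0 CPM, against 200.7, 642.8 and 3.14 CPM. Of 12 macrophage genes, 5 were at 0 in PI8 day 9 cells, and Cd68 (8.88 CPM, against 107.7, 213.9 and 327.9 CPM) was lower than in every splenic library. Apoe, at 181.1 CPM, was the only 1 of the 12 above 10 CPM.

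Lymphoid-primed progenitor genes differed in direction between the comparisons. Against cDC1 3 of 8 genes were at least 4-fold higher and 1 lower (Ccr9), against cDC2 3 higher and 0 lower, and against pDC 1 higher and 3 lower. Dntt, the terminal transferase of early lymphoid cells, stood at 194.7 CPM in PI8 day 9 cells, against 0, 0 and 183.9 CPM. The level was 1.06 times that in pDC cells (interval 0.996 to 1.12), but its UMIs lay in 25.2% of the PI8 day 9 cells. Sox4, a factor of progenitors and early B cells, was the gene higher in all 3 comparisons, at 417.1 CPM, against 0.98, 15.4 and 41.9 CPM. Flt3, the receptor that lymphoid-primed progenitors and DCs share, stood at 72.2 CPM, against 166.1, 135.3 and 131.7 CPM, under 4-fold lower throughout. Il7r (4.36 CPM), Rag1 (1.61 CPM) and Ccr9 (4.36 CPM) were low, each under 10 CPM.

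Most genes of committed lymphocytes were sparse. Of 10 B-lineage genes, Vpreb1 was the 1 higher than in every splenic library, at 10.8 CPM in PI8 day 9 cells, against 0, 0.43 and 1.05 CPM. Under TMM scaling that call ended and 0 of the 10 were higher than in every splenic library. Ighm had the most UMIs of the 10 in PI8 day 9 cells, with 470 in 232 cells, and was called lower than in pDC. Cd79b stood at 38.3 CPM, against 5.38, 28.5 and 61.1 CPM, and Pax5 at 0.81 CPM, against 0.68, 0.86 and 0.13 CPM. Among 10 T and NK genes, Nkg7, a granule membrane protein, stood at 140.1 CPM in PI8 day 9 cells, against 1.82, 0.34 and 0.019 CPM. Cd3e, Cd3g, Ncr1 and Gzma had 0 UMIs there, and Lck, a kinase of T cell receptor signalling, had 56 UMIs in 51 cells (9.04 CPM). The 10 genes summed to 150.3 CPM. Of 7 endothelial genes, which early stem cells partly share, Egfl7 (209.1 CPM, against 0.53, 0.043 and 0.75 CPM) and Emcn (18.4 CPM, against 0 CPM in all 3) were higher than in every splenic library, while Cdh5 and Cldn5 had 0 UMIs.

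**Figure D2:**
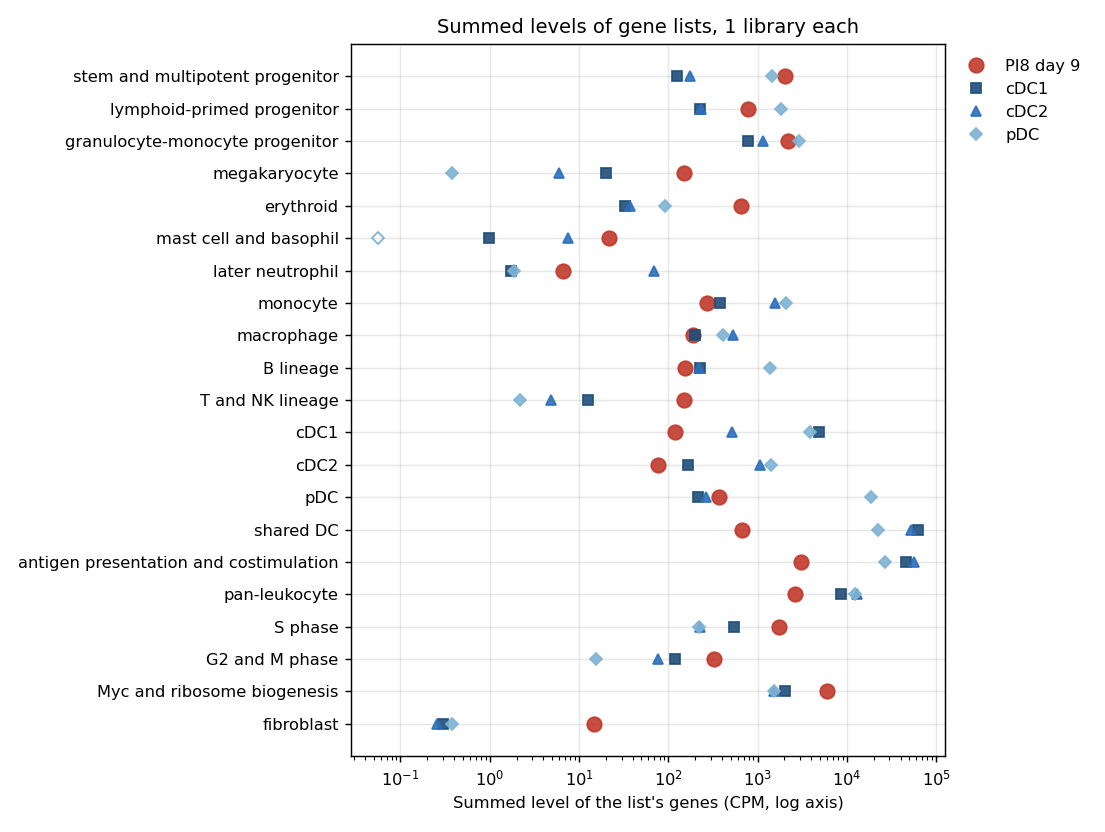
Summed CPM of each gene list (log axis) in PI8 day 9 (red circles) and in the splenic cDC1, cDC2 and pDC libraries (blue symbols), 1 library each; the open symbol stands at the 3-count floor for a list with 0 UMIs. Among others, PI8 day 9 lies right of all 3 for the stem, megakaryocyte, erythroid, cell cycle and Myc lists and left of all 3 for the cDC1, cDC2, shared DC, antigen presentation and pan-leukocyte lists.

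The DC programme was low as a whole. Of 10 genes shared among DCs, 7 were at least 4-fold lower in PI8 day 9 cells than in every splenic library, and 0 were higher. Among the 8175 genes eligible in all 3 comparisons, 2.34% were lower than in every one. Cd74, the invariant chain of MHC class II, stood at 46.98 CPM in PI8 day 9 cells, against 19154.8, 22750.6 and 12203.9 CPM in cDC1, cDC2 and pDC cells. It was lower by 408 times (interval 363 to 459), 484 times (432 to 545) and 260 times (232 to 292). H2-Aa, a class II chain, stood at 36.3 CPM, against 6744, 9147 and 3953 CPM, and the similar H2 genes may share reads. Ciita, the master regulator of class II transcription, stood at 1.13 CPM, against 386.2, 471.5 and 101.4 CPM. Itgax, which encodes the CD11c protein used to sort all 3 splenic groups, stood at 0.65 CPM, against 145.1, 293.3 and 63.5 CPM. Zbtb46, the factor that marks conventional DCs, had 1 UMI.

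Genes of each subset were low against the library of that subset. Against the cDC1 library all 10 cDC1 genes were at least 4-fold lower, with Xcr1, Batf3 and Cd8a at 0 UMIs in PI8 day 9 cells, against 423.7, 268.4 and 352.6 CPM in cDC1 cells. Against the cDC2 library 8 of 10 cDC2 genes were lower, among them Cd209a (0.81 CPM, against 342.1 CPM) and Sirpa (9.85 CPM, against 210.6 CPM). Against the pDC library all 10 pDC genes were lower, among them Siglech, a pDC surface lectin (9.04 CPM, against 3050 CPM). Against the other libraries calls were mixed. Of the pDC genes, 2 were higher and 1 lower against cDC1, and 1 higher and 1 lower against cDC2. Of the cDC2 genes, 2 were higher and 1 lower against cDC1, and 2 higher and 6 lower against pDC. No cDC1 gene was higher against cDC2 or pDC. The pDC list summed to 374.9 CPM in PI8 day 9 cells, against 216.9 and 263.6 CPM in cDC1 and cDC2 cells. At least 10 Cd74 UMIs were found in 2 of 683 PI8 day 9 cells, at least 3 Siglech UMIs in 2, and at least 2 UMIs of Xcr1 or Clec9a in 0. Other subset genes were found in more cells, among them Bst2 in 486, Tcf4 in 446, Clec12a in 115 and Esam in 100. Genes shared among DCs also ranged widely when any UMI was counted. Cst3 was found in 642 cells, H2-Ab1 in 447, Cd74 in 144 and H2-Aa in 135, but Ciita in 7, Itgax in 4 and Zbtb46 in 1. H2-DMa, another class II gene, was found in 447. Cd40 and Cd80, costimulatory receptors of activated DCs, had 0 UMIs, whereas B2m, the class I light chain of all nucleated cells, stood at 1702 CPM, against 1236, 2460 and 2827 CPM.

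At least 1 of 3 genes common to leukocytes was found in every cell. UMIs of Ptprc, Coro1a or Laptm5 were present in 683 of 683 PI8 day 9 cells. Singly, Coro1a was found in 677, Laptm5 in 611 and Ptprc in 526, and Cd53, another such gene, in 197. A UMI of any of the 3 was also found in 88.3% of PI8 day 3 cells and in 11.1% to 99.7% over all other transduced libraries, against 4.25% and 5.38% in the MEF libraries. Ptprc, the pan-leukocyte phosphatase CD45, stood at 138.8 CPM, against 470.5, 1682 and 682.5 CPM. Of 12 pan-leukocyte genes, Cd52 and Tyrobp were lower than in every splenic library, and under TMM scaling Ptprc and Cd53 were too. Tyrobp, the signalling adaptor of mature myeloid and pDC receptors, stood at 103.5 CPM, against 645.4, 1927 and 4576 CPM.

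Among 34 haematopoietic transcription factors, 9 were at least 4-fold higher than in every splenic library and 0 lower. The 9 were Myb, Cebpb, Gata2, Gfi1b, Tal1, Lyl1, Zfpm1, Nfe2 and Erg, of which Cebpb and Lyl1 were not called under TMM scaling. Myb, a factor of progenitor self-renewal, stood at 263.3 CPM in PI8 day 9 cells, against 4.77, 0.34 and 59.6 CPM. Zfpm1, the cofactor of GATA proteins, stood at 68.9 CPM, against 1.21, 0.47 and 2.09 CPM. Irf8, one of the 2 factors the label names, stood at 84.3 CPM, against 1607, 25.9 and 3555 CPM. It was lower by 19.1 times against cDC1 and by 42.2 times against pDC, and 3.25 times higher than in cDC2, the last short of the 4-fold size. Id2, which conventional DCs need, stood at 5.81 CPM, against 818.3, 217.0 and 3.86 CPM, and so was low in pDC too. Tcf4, the factor of pDC identity, stood at 135.4 CPM, against 27.9, 88.4 and 2059 CPM.

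Spi1, the other labelled factor, stood at 215.4 CPM in PI8 day 9 cells (interval 204 to 227), against 358.6, 587.1 and 74.6 CPM in cDC1, cDC2 and pDC cells and 93.4 CPM in PI8 day 3 cells. Every 1 of the 683 cells held a Spi1 UMI, although the gene had 1334 UMIs in all. Exactly 1 UMI was found in 322 cells, 2 in 174 and 3 or more in 187, with a highest count of 8. The 50 genes nearest to it in count (1285 to 1383 UMIs) were found in 62.1% to 84.8% of the cells (median 79.7%). In all 112 genes were found in every cell, and the lowest of them apart from Spi1 had 5776 UMIs. Irf8 had no such pattern, being absent from 340 of 683 cells. No cell lacked Spi1 among 707 cells of the PIB day 3 library either, whereas 56 of 411 PI8 day 3 cells, 23 of 814 cDC1, 20 of 1881 cDC2 and 1749 of 4169 pDC cells did. A filter on Spi1 before deposit is not given in the sources used here and was not tested, so the level of Spi1 and its share of cells cannot be read as those of an unselected library.

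**Figure D3:**
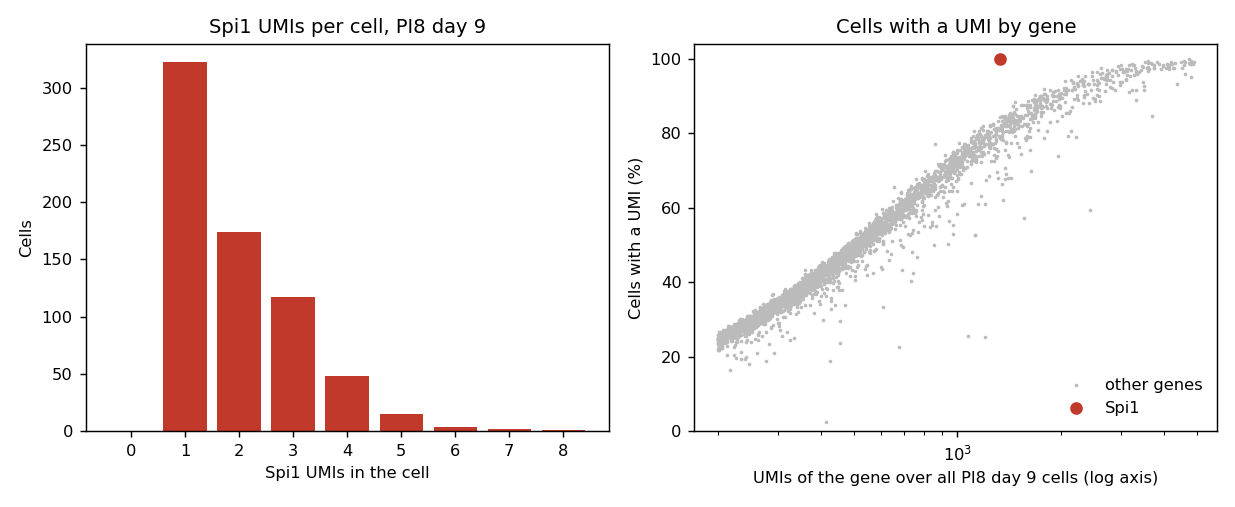
Left, number of PI8 day 9 cells by their Spi1 UMIs, with no cell at 0 and 322 cells at 1. Right, share of the 683 cells with a UMI against the summed UMIs of each gene (log axis); Spi1 (red) lies at 100% with 1334 UMIs, above the band of other genes (grey).

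Of 16 growth factor receptors, 2 were at least 4-fold higher than in every splenic library, Csf3r among them, and 0 were lower than in every one (1, Csf2rb, under TMM scaling). Csf3r, the granulocyte colony-stimulating factor receptor, stood at 31.8 CPM in PI8 day 9 cells, against 0, 6.42 and 0.21 CPM. Csf2rb, the shared chain for GM-CSF, IL-3 and IL-5, stood at 16.6 CPM, against 65.2, 121.0 and 221.0 CPM. Of 13 Hox genes and partners, Hoxa9, Hoxa10 and Meis1 were higher than in every splenic library. Hoxa9 stood at 139.2 CPM, against 0, 0 and 6.74 CPM. Hoxc8 had 0 UMIs and Hoxc6 3 UMIs in 1 cell, against 21.6 and 20.5 CPM in PI8 day 3 cells.

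Cell cycle genes were called higher more often against pDC and cDC2 than against cDC1. Of 15 S phase genes, 13 were at least 4-fold higher against pDC and 13 against cDC2, but 5 against cDC1, or 2 under TMM scaling. Mcm7, a subunit of the replicative helicase, stood at 188.7 CPM in PI8 day 9 cells, against 42.2, 16.5 and 18.3 CPM, and was not called against all 3 under TMM scaling. Of 15 G2 and M phase genes, 5 were higher against cDC1 (3 under TMM scaling), 8 against cDC2 (5) and 10 against pDC (8). Top2a, a topoisomerase of dividing cells, stood at 118.5 CPM, against 19.5, 10.3 and 2.86 CPM. Myc stood at 146.1 CPM, against 15.4, 22.2 and 0.075 CPM, and Mycn at 31.6 CPM, against 0 CPM in all 3. Of the 14 genes of the Myc and ribosome biogenesis list, 4 were higher than in every splenic library (Myc, Mycn, Ncl and Dkc1), and under TMM scaling Ncl and Dkc1 were not. Ribosomal protein genes took 35.1% of the PI8 day 9 UMIs, against 26.8%, 27.2% and 20.4% in cDC1, cDC2 and pDC cells. Such a share lowers every other gene's CPM in the same library, and its part in the results was not tested.

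Genes ranked by their smallest ratio over the 3 splenic libraries, among those of at least 100 CPM, included Ctla2a, Prtn3, Mpo, Myl10, Igfbp4, Adgrl4, Ctsg, Hlf and Mecom among the first 10. Myl10, a myosin light chain, stood at 265.4 CPM in PI8 day 9 cells, against 0, 0 and 0.094 CPM. Adgrl4, an adhesion G protein-coupled receptor of endothelium, stood at 411.0 CPM. The genes with at least 100 CPM in every splenic library that were most reduced were Cd74, H2-Aa, Ciita, Jaml, H2-Eb1, Ly86, Ifi30, Pld4, Ctsh and Ppfia4. Ifi30, a thiol reductase of antigen processing, stood at 11.8 CPM, against 473.1, 1326.4 and 505.8 CPM. Ly86, the partner of a toll-like receptor homologue, stood at 5.49 CPM, against 246.8, 474.0 and 818.3 CPM.

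The 683 cells were not uniform. Clustering within the library gave 4 clusters, whose leading genes describe them and are no test. Cluster 1 (221 cells, 32.4%) was led by Iigp1, Procr, Mycn, Hacd4, Pdzk1ip1, Ltb, Txnip, Tnip3, Nkx2-3 and Mllt3. It is called stem and multipotent progenitor-like, although 2 of these 10 leaders were on that list. The stem list summed to 2750 CPM there, against 1800, 1480 and 1976 CPM in clusters 2, 3 and 4. Other lists were highest there too, among them the megakaryocyte list (262.6 CPM, against 41.5, 59.3 and 195.3 CPM). The erythroid list stood at 939.4 CPM, against 374.3, 353.1 and 808.6 CPM. Cluster 2 (183 cells, 26.8%) was led by Ccl5, Dntt, Cmah, Ighm, Ccl3, Satb1, Wfdc17, Il12a, Notch1 and Ncf1. It is called lymphoid-primed progenitor-like, although chemokine genes stood among its leaders and 1 cell held 72.3% of the Ccl5 UMIs. The lymphoid-primed list summed to 1565 CPM there, against 555.2, 578.9 and 447.9 CPM in clusters 1, 3 and 4. The granulocyte-monocyte list, which includes Plac8, summed higher, to 2695 CPM, against 1233, 4114 and 1489 CPM. The name of cluster 2 thus covers only part of its genes. Cluster 3 (94 cells, 13.8%) was led by Elane, Esco2, Pclaf, Birc5, Rrm2, Aurkb, Hist1h3c, Ctsg, Fbxo5 and Clspn and is left unnamed, since cell cycle genes made up most of its leaders and 5 cells held 97.1% of the Elane UMIs of the library. Cluster 4 (185 cells, 27.1%) was led by Car1 from 1 cell, Apoe, Nefh and replication genes, and is unnamed too.

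Genes differed in how far their levels varied between the clusters. Dntt stood at 15.3, 653.9, 134.3 and 10.2 CPM in clusters 1 to 4, and Ctsg at 9.8, 192.7, 565.0 and 61.0 CPM. Prtn3 varied far less, at 504.5, 536.5, 894.6 and 438.3 CPM, and after thinning was found in 62.3% to 69.1% of the cells of every cluster. Hlf stood at 265.1, 85.0, 91.5 and 142.3 CPM and was highest in cluster 1. Top2a stood at 23.8, 64.9, 313.9 and 125.8 CPM. Median UMIs per cell also differed, at 6831, 7977, 12030.5 and 9411, and the part of depth in the clusters was not tested. Free RNA in the droplets can spread abundant transcripts over all cells, and its part in the wide share of Prtn3 was not tested.

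Genes were found together in cells to different extents. Of the 405 cells with Mpo, 38.5% held Ctsg, against 6.47% of the cells without Mpo. Of the 172 cells with Dntt, 65.1% held Flt3, against 29.7% of the cells without Dntt. Mecom went the other way, in 47.7% of the cells with Dntt and 68.9% of those without it. Cells with Hlf held Mecom more often than cells without Hlf, at 70.0% and 53.1%. Deeper cells hold more genes of every kind, so these shares are descriptions only.

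**Figure D4:**
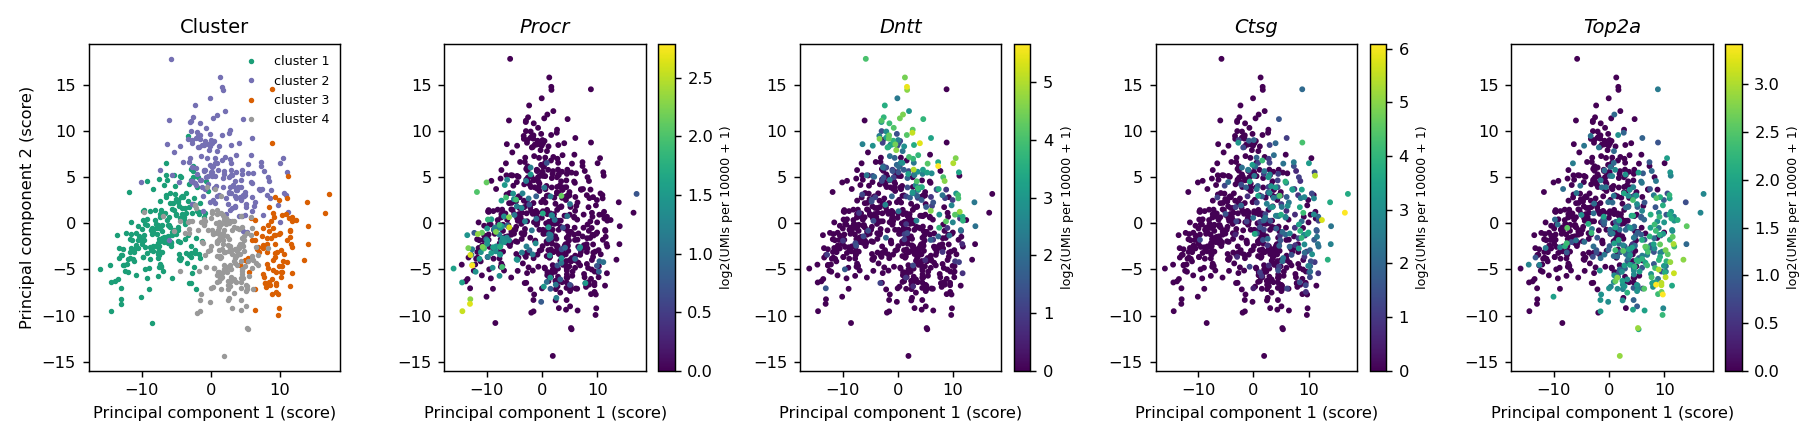
The 683 PI8 day 9 cells on the first principal components (scores, no unit), coloured by cluster and by the log2 level of Procr, Dntt, Ctsg and Top2a (UMIs per 10000 of the cell, plus 1). Procr lies mostly on the left, Dntt at the top, and Ctsg and Top2a on the right, with no gap between clusters.

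**Figure D5:**
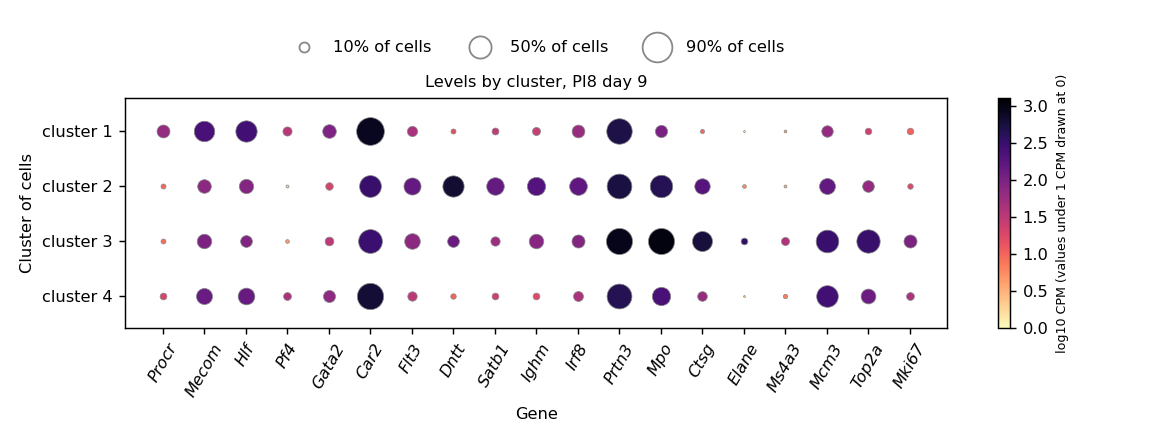
Level (colour, log10 CPM of the summed cells) and share of cells (circle size) of selected genes in the 4 clusters of PI8 day 9 cells. The share is that of cells with a UMI after thinning every cell to 2500 UMIs, whereas the level is not thinned. Prtn3 and Car2 are wide in every cluster, whereas Dntt is marked in cluster 2, Mpo, Ctsg and Top2a in cluster 3, and Procr and Hlf in cluster 1.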

How the data were processed

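RNA of single mouse cells was measured with the 10x Chromium 3' v3.1 assay. The authors deposited raw UMI counts of 24455 genes in 25991 cells. Cell Ranger 6.0.1, Seurat and mm10 are named by the submitters' processing notes. The rule by which cells were kept is not given in the sources used here. Columns left unassigned numbered 0. Counts were summed per library and scaled to 1000000 UMIs (CPM). With 1 library per group there was no test: a gene was called at 4-fold and at least 10 CPM in either library, with 0 counts set to 3. Intervals were exact at 95 percent (Poisson, Clopper-Pearson, conditional binomial for ratios) and cover counting error only.

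PI8 day 9 cells were clustered with scanpy 1.11.5 (2000 variable genes, 20 principal components, 15 neighbours, Leiden resolution 0.6). Scrublet marked 26 of 7547 cells (0.345%) over the 4 libraries, with 10 of 683 (1.46%) in PI8 day 9 and 0 of 4169 in pDC. Whether these few calls are right was not tested. Doublets were therefore not removed, and their part is not known. Scaling alternatives used edgeR 4.0.16 and DESeq2 1.42.0 in R 4.3.3. Scripts were tested on simulated data. Named genes were the members of the gene lists and the genes ranked by ratio, level or cluster fold under rules written down with the design. The members and lists were chosen with earlier results of these data known, and list counts are therefore descriptions. Coordinates come from GENCODE vM21 (GRCm38, the same build as mm10), and promoter sequence from RefSeq. Prss34, Tpsb2, Ear6 and Mx1 had no entry under those symbols. Values of some genes on the lists are not reported here.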

Additional observations from a re-analysis of the deposited data

How the results depend on the processing

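No paired analysis was possible because each group compared was 1 library and only the MEF libraries were replicated. Without the 10 CPM limit, 2425 genes were higher and 1085 lower against cDC1, 2506 and 1441 against cDC2, and 3409 and 1351 against pDC. At 8-fold the counts were 546 and 382 against cDC1, 567 and 543 against cDC2, and 586 and 483 against pDC. Both follow from the construction of the rule. The summed fibroblast level over MEF, 0.000585, was 0.000581 to 0.000588 leaving out each MEF library. At Leiden resolution 1.0 there were 7 clusters in place of 4. The cluster highest in Dntt had 102 cells with cell cycle genes left out and 106 without the Scrublet doublets, and the cluster highest in Elane had 237 cells at resolution 0.3; the cause was not tested. The other 50 values for calls, clusters and the fibroblast ratio moved by less than 1.5 times. Thinned shares of cells, where given beside the unthinned ones, were all lower. The smaller PI8 day 9 library limits low genes: 0 counts allow up to 0.484 CPM.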

Other observations

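Genes of the interferon response were low in PI8 day 9 cells beside the MEF libraries, transduced or not. The 12 genes of the list, of which 11 were in the table, summed to 189.5 CPM in PI8 day 9 cells. They summed to 5893.8 CPM in PI8 day 3 cells and 1418.3 CPM or more across the other libraries of transduced MEFs. The untransduced MEF libraries stood at 5539 and 5493 CPM, and cDC1, cDC2 and pDC at 377, 1291 and 1241 CPM. Irf7, a transcription factor of that response, was at least 4-fold lower than in every splenic library, at 13.2 CPM in PI8 day 9 cells, against 80.1, 79.5 and 266.1 CPM in cDC1, cDC2 and pDC cells. Isg15, a secreted ubiquitin-like protein, stood at 38.7 CPM, against 31.3, 135.5 and 27.5 CPM in those libraries and 2217 CPM in PI8 day 3 cells. The list of toll-like receptors and sensing genes held 11 receptors and Myd88, Irf7 and Cd14, and summed to 40.04 CPM in PI8 day 9 cells, against 480.1, 295.5 and 469.9 CPM in the splenic libraries. Most of the PI8 day 9 sum was Myd88 (87 UMIs) and Irf7 (82), whereas the highest receptor, Tlr2, had 25 UMIs (4.04 CPM) and Tlr1, Tlr8 and Tlr13 had 0.

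Xist, the RNA of the inactive X chromosome, stood at 1119 CPM in PI8 day 9 cells, against 136.0 CPM in PI8 day 3 cells and 564.0, 866.9 and 1776 CPM in the splenic libraries. With the Y-linked genes Ddx3y, Eif2s3y, Kdm5d and Uty added, the splenic sums were 564.0, 867.1 and 1776 CPM. Those Y-linked genes were thus close to 0 in the splenic libraries too. Over 11360 genes, the Spearman correlation of the PI8 day 9 levels was 0.75 with cDC1, 0.73 with pDC and 0.71 with cDC2, and 0.61 with PI8 day 3. It was 0.53 and 0.54 with the MEF libraries. The correlations are across genes, which are not independent, and every library shares the same highly expressed housekeeping genes.

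Jun and H2afy were among the genes of highest level in PI8 day 9 cells, and Tmsb4x was lower than in every splenic library. Jun, an immediate early factor, stood at 1915.9 CPM in PI8 day 9 cells, against 227.8, 483.6 and 962.6 CPM in cDC1, cDC2 and pDC cells. H2afy, a variant histone gene, stood at 1982.2 CPM, against 493.1, 516.8 and 505.8 CPM. Tmsb4x, an actin-binding peptide of motile cells, stood at 1636.1 CPM, against 29779.9, 20360.8 and 8707.2 CPM.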
